A study of Mus musculus with 4 samples.

Results

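The passenger strands of 88 miRNA hairpins were followed in resting mouse bone marrow-derived macrophages (BMDMs). A hairpin entered when both of its arms, 5p and 3p, had a line in the small RNA table, when the arm with fewer counts reached 100 counts summed over the libraries, and when the other arm had a mean level of at least 10 RPM (reads per 1000000 counts of the library). Of 884 precursors with a line for each arm, 121 passed these counts, and 33 were set aside by name, either because they are on a list of 24 miRNAs not covered here or because they carry numbers of 1000 and above. The remaining 88 precursors gave 88 passenger strands and 83 guide strands that differ by name, out of 1979 mature miRNAs in the table. Of these passengers, let-7a-1-3p and let-7c-2-3p have the same sequence. The arms were thus chosen on the counts themselves, so that passenger levels and shares are given as a description.

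Small RNA had been sequenced from 4 cultures: a pair of wild type (WT A and WT B), 1 with a deleted mir-146a (KO) and 1 with the 3′F allele. In 3′F a stretch of miR-146a toward its 3′ end, outside the seed, is exchanged with the bases opposite it in the duplex, and both alleles were homozygous and came from targeted embryonic stem cells. The mice were of a mixed 129/B6 background and 6 to 7 months old, and marrow was grown for 8 to 9 days in 10 ng/ml M-CSF, plated at 85000 cells per cm2 and left for 16 h without LPS. The paper names A and B as biological replicates of BMDM culture. The labels name 3 mice per genotype without saying whether a library pools them, so the spread between the WT libraries may not be that between mice. Since each mutant had a single library, no test of genotype was made. Wherever 4 values stand in a row, they follow the order WT A, WT B, KO, 3′F.

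A miRNA hairpin is cut by Drosha in the nucleus and by Dicer in the cytoplasm to a short duplex. Argonaute keeps 1 strand, the guide, which finds target mRNAs through its seed, the bases next to its 5′ end, while the other strand, the passenger, is released and degraded. Argonaute is known to favor the strand whose 5′ end is less firmly paired and begins with U. A passenger can therefore be rare even where its hairpin is among the most expressed, and in some hairpins both arms are kept.

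RefSeq mature sequences (GRCm38.p6) were found for 82 of the 88 passengers and 81 of the 88 guides. In the sequences below the seed, bases 2 to 8, is in capitals. The first set holds the passengers with the lowest shares among the 88, all of the let-7 family or of the miR-17-92 cluster. Beside them is the guide that let-7f-1 and let-7f-2 have in common.
let-7i-3p: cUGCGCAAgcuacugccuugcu
let-7f-2-3p: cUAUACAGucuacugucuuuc
let-7f-1-3p: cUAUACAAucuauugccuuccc
miR-92a-1-5p: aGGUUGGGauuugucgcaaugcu
let-7f-5p: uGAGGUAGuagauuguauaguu

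The second set shows the arms of hairpins mir-30a and mir-30e, in which opposite arms were the minor ones, and the arms of mir-29a and mir-29c, likewise opposed.
miR-30a-5p (guide): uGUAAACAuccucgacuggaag
miR-30e-5p (passenger): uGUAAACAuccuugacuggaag
miR-30a-3p (passenger): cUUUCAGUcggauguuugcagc
miR-30e-3p (guide): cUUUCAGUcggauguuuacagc
miR-29a-3p (guide): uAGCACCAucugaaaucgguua
miR-29c-3p (passenger): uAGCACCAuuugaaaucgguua

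The third set holds passengers from pairs of precursors whose guide is the same, where the passenger is what tells the precursors apart, and both arms of mir-877, whose share differed most between libraries.
miR-125b-1-3p: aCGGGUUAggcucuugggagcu
miR-125b-2-3p: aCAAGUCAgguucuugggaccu
miR-125b-5p (guide of both): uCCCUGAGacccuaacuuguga
miR-16-1-3p: cCAGUAUUgacugugcugcuga
miR-16-2-3p: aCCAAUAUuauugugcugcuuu
miR-16-5p (guide of both): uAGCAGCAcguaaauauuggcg
miR-877-3p: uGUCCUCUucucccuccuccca
miR-877-5p (guide): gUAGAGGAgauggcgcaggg

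The libraries held 11410940 to 19087640 counts, so that a level of 3 counts was 0.157 to 0.263 RPM. In the check of the targeted gene, miR-146a-5p of wild-type sequence had levels of 6253 and 5485 RPM in the WT libraries, 13.4 RPM in KO and 6.64 RPM in 3′F. The altered miRNA of 3′F has its own line, at 0 in WT and 3.53 in 3′F as log2(RPM + 1). By qRT-PCR the paper found its level similar to that of wild-type miR-146a in most tissues and cells examined. The paper warns that its read counts are a poorer measure of abundance. The passenger miR-146a-3p had 8, 3, 0 and 0 counts and so did not enter. Of the other myeloid markers, miR-223-3p was at 1574, 1466, 1636 and 1503 RPM, miR-142a-3p at 1721, 1121, 1115 and 1071 RPM and miR-155-5p at 71.3, 70.3, 55.2 and 62.7 RPM, the last lowest in KO. In contrast muscle, liver and neural markers summed to at most 4.97 RPM for any list and lymphoid, stromal and endothelial ones to at most 13.2 RPM. The 6 epithelial miR-200 family and miR-205 markers summed to 620, 843, 441 and 611 RPM, lowest in KO, with miR-141-3p and miR-205-5p at no more than 1.08 RPM. The 3 erythroid markers summed to 93.2, 94.1, 36.5 and 43.3 RPM. What part such cells have in the passenger levels was not tested.

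The 88 passengers together made up 0.914%, 0.968%, 0.954% and 0.884% of the counts of WT A, WT B, KO and 3′F. Their guides summed to 399951 to 426190 RPM per library. Mean WT levels of the passengers ran from 2.56 to 1453 RPM, with a median of 18.9 RPM, and 15 of them were above 100 RPM. Across the 88 hairpins the WT levels of passenger and guide had a Spearman rho of 0.35, both arms being read from the same libraries. The count limits, and the choice of the smaller arm as passenger, shape this value. It therefore describes only the hairpins that entered.

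The most abundant passenger was miR-27a-5p, at 1508, 1398, 1510 and 1639 RPM in WT A, WT B, KO and 3′F, which placed it 47th of 387 mature miRNAs with at least 100 counts. It comes from chr8:84208685-84208706 on the plus strand (GRCm38), near mir-23a. Next were miR-30e-5p at 1031, 1101, 873 and 778 RPM, and let-7d-3p at 688, 976, 882 and 736 RPM. For let-7d-3p the WT libraries stood further apart than KO and 3′F did. The next in order were miR-423-5p at 789 ± 103 RPM (SD, n = 2 WT libraries), miR-99b-3p at 629 ± 17.1 RPM and miR-140-5p at 561 ± 16.2 RPM. These 6 ranked from 47th to 79th, and none of them was called changed in KO or 3′F.

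For each hairpin the passenger share was the passenger's counts as a percentage of the counts of both arms. The mean WT share ran from 0.0117% to 49.0%, with a median of 4.99% over the 88 hairpins. It was below 0.1% in 4 hairpins, from 0.1% to 1% in 21, from 1% to 10% in 31 and above that in 32. With no count minimum for the passenger the median was 0.923%. The shares and their order thus hold for passengers with enough counts to enter. The passenger was the 3p arm in 54 hairpins and the 5p arm in 34, with median shares of 3.93% and 5.82%. Since a share sets different sequences against each other, which a small RNA library can capture unequally, an order of hairpins by share is an order of read counts. A comparison of 1 hairpin between libraries is free of that difference.

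**Figure D1:**
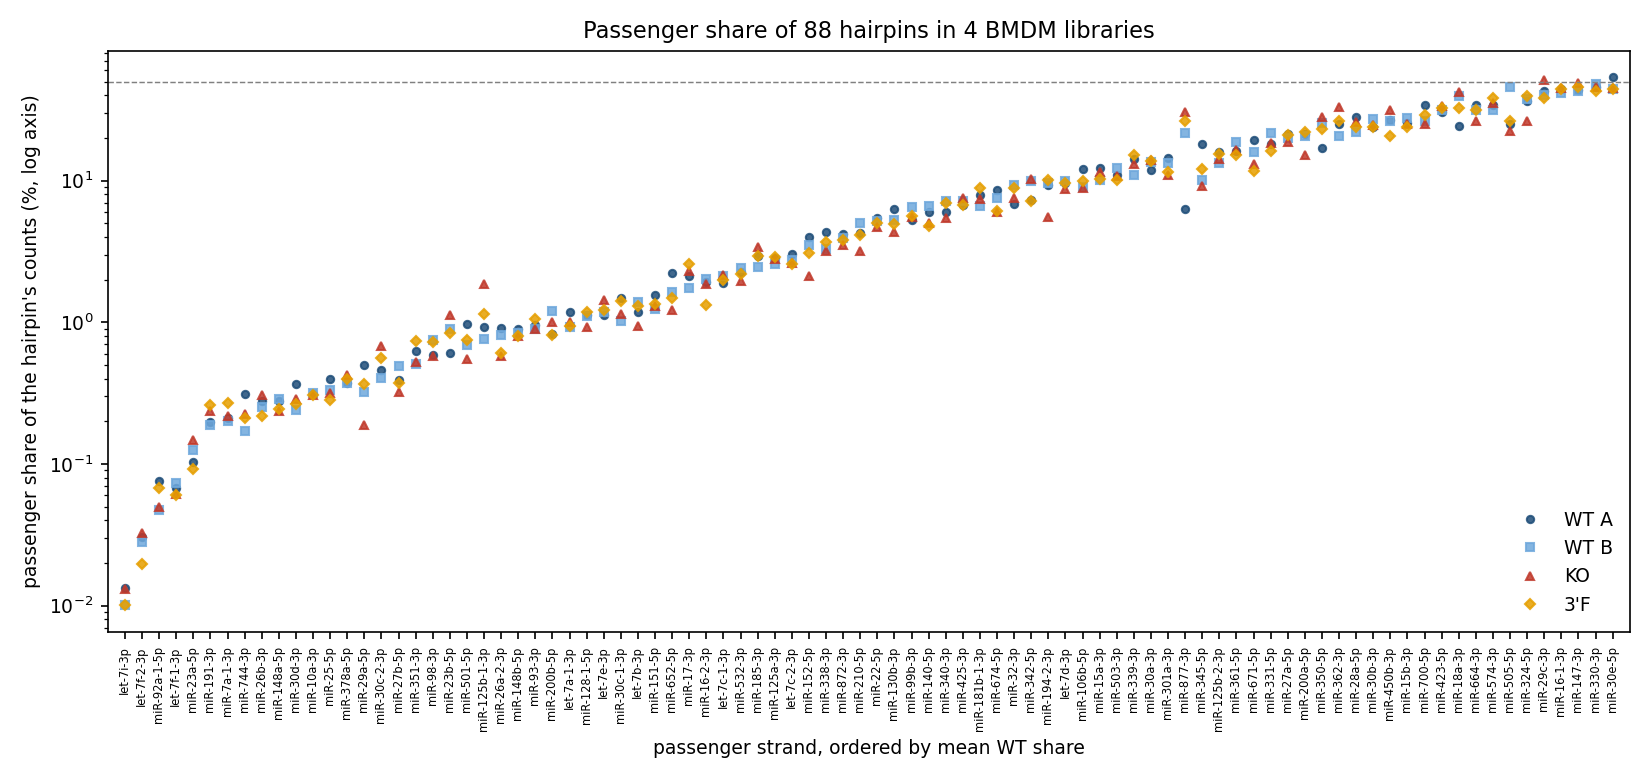
Each column is a hairpin, ordered by its mean WT share, and the points give the passenger's percentage of the hairpin's counts in each of the 4 libraries on a log axis, with a dashed line at 50%. The points climb from 0.0117% for let-7i-3p to 49.0% for miR-30e-5p, and in most columns the 4 libraries lie close together, miR-877-3p and miR-505-5p being among those that spread.

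Passengers under the count minimum were not ranked, among them miR-7a-2-3p and miR-128-2-5p, with 0 counts in each library. Among the hairpins that entered, the lowest share belonged to let-7i-3p (chr10:122985642-122985663, minus strand). It had 170 and 88 counts in the WT libraries, 184 in KO and 119 in 3′F. Its share was 0.0133% (95% Wilson interval 0.0115 to 0.0155) in WT A and 0.0101% (0.00817 to 0.0124) in WT B, and its guide was 8567 times as abundant in WT. The let-7 miRNAs restrain proliferation and are known to build up in differentiated cells. Its relatives let-7f-2-3p and let-7f-1-3p followed at 0.0294% ± 0.0017 and 0.0706% ± 0.00355 (SD, n = 2). By mean share miR-92a-1-5p, from the proliferation-linked miR-17-92 cluster, lay between them at 0.0616% ± 0.0197. Its interval overlapped that of let-7f-1-3p in both WT libraries.

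The next of the low shares were those of miR-23a-5p (0.114% ± 0.0153), miR-191-3p (0.193% ± 0.00721), miR-7a-1-3p (0.205% ± 0.00713) and miR-744-3p (0.241% ± 0.0978). Counted per precursor line, the interval of let-7i-3p did not reach that of any neighbor in this order. Those of miR-191-3p and miR-7a-1-3p overlapped in both WT libraries. Not all let-7 passengers were rare, as let-7d-3p made up 9.85% ± 0.222 of its hairpin.

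At the other end both arms were almost equally abundant. For miR-30e-5p the share was 53.7%, 44.2%, 45.3% and 44.2% in WT A, WT B, KO and 3′F, so that the named passenger outnumbered its partner in WT A alone. The Wilson interval in WT A, 53.2% to 54.2%, did not reach the others. miR-330-3p was at 46.1%, 48.3%, 46.1% and 42.6%, and miR-147-3p at 43.3%, 42.8%, 49.1% and 46.1%. For miR-29c-3p, of a family known to repress collagens and DNA methyltransferases, the share was 42.8%, 40.5%, 51.2% and 38.3%. It exceeded its partner in KO alone, with an interval of 46.2% to 56.2% that holds 50%. These were the 2 hairpins in which the order of the arms turned in any library.

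The rest of the 10 highest shares were those of miR-16-1-3p (43.0% ± 2.23, SD, n = 2 WT libraries), miR-324-5p (37.2% ± 0.933), miR-505-5p (35.4% ± 14.5), miR-574-3p (32.9% ± 1.99), miR-664-3p (32.7% ± 1.93) and miR-18a-3p (31.9% ± 10.8). The SDs of miR-505-5p and miR-18a-3p were larger than the steps between neighbors in this order. miR-324-5p was lowest in KO, at 26.3% (23.2 to 29.8) against 36.6% (32.9 to 40.4) and 37.9% in WT, with 39.5% in 3′F. For miR-147-3p both arms were lowest in KO, at 5.71 RPM against 8.96 and 11.9 RPM for the passenger and 5.92 RPM against 11.7 and 16.0 RPM for the guide.

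The shares were counted per precursor line, and for 17 hairpins the guide has 2 lines because 2 precursors yield it. The counts on such lines were mostly not whole numbers: 24.2% of 244 values were whole for mature miRNAs with several lines and 81.8% of 1444 for those with 1 line. At least some reads that fit several lines were thus divided, and a line may hold only part of the guide. If all were divided, the guide is the sum of its lines. With that sum miR-16-1-3p made up 27.5% of the counts and let-7f-2-3p 0.0151%, or 0.0158% and 0.0145% in WT A and WT B. The latter values are close to the upper limits of let-7i-3p given above, and no intervals were computed with summed guides. Mean shares were then 0.0342% for let-7f-1-3p, 0.0581% for miR-92a-1-5p and 0.104% for miR-7a-1-3p. This puts miR-92a-1-5p above both let-7f passengers and miR-7a-1-3p below miR-23a-5p. The median share of all 88 hairpins was then 4.34%.

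The passenger arms differed from the guide arms at the 5′ end, in features not themselves used to choose them. The arms were chosen on read counts, which can depend on how well a sequence is captured, and the part of this was not tested. Of 79 hairpins with both sequences, 13 passengers and 49 guides began with U, and 34 passengers began with C. In the RefSeq mature sequences of the table, 40.9% of 1679 began with U. Passengers with U were missing from the low end of the order of shares. Among the 29 hairpins of lowest share, up to 1.15%, 0 of 26 passengers and 21 of 26 guides with both sequences began with U. In the middle 29 these were 5 of 25 passengers and 12 of 25 guides, and among the 30 of highest share, from 11.6%, 8 of 28 passengers and 16 of 28 guides, so the guides with U were fewest in the middle. Members of a family share sequence, and 6 of the 29 hairpins of lowest share were of the let-7 and miR-98 family. Without that family, 13 passengers and 40 guides of 69 hairpins began with U, and 24 passengers with C. Among those of lowest share, 0 of 20 passengers and 15 of 20 guides then began with U.

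Pairing of the ends was read from the predicted fold of lowest energy, as the hydrogen bonds over the first 4 bases of each arm's 5′ end (3 for a G-C pair, 2 for other pairs). In 72 hairpins that could be scored, the passenger's 5′ end had more bonds than the guide's in 46, fewer in 17 and as many in 9. By share, the passenger's end was the more bonded in 22 of 25 hairpins with the lowest shares, 14 of 23 in the middle and 10 of 24 with the highest. In both let-7f hairpins, whose passenger begins with C and whose guide with U in the sequences above, the count was 9 bonds against 7. The other hairpins named let-7 had the same count, at shares from 0.0117% for let-7i-3p to 9.85% for let-7d-3p. The difference in bonds and the mean WT share had a Spearman rho of -0.38 over the 72 hairpins, which include families and pairs of copies. Exceptions were plain. miR-450b-3p had 8 bonds against 2 and still made up 26.4% of its hairpin, and miR-148a-5p had 9 against 10 and made up 0.284%.

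**Figure D2:**
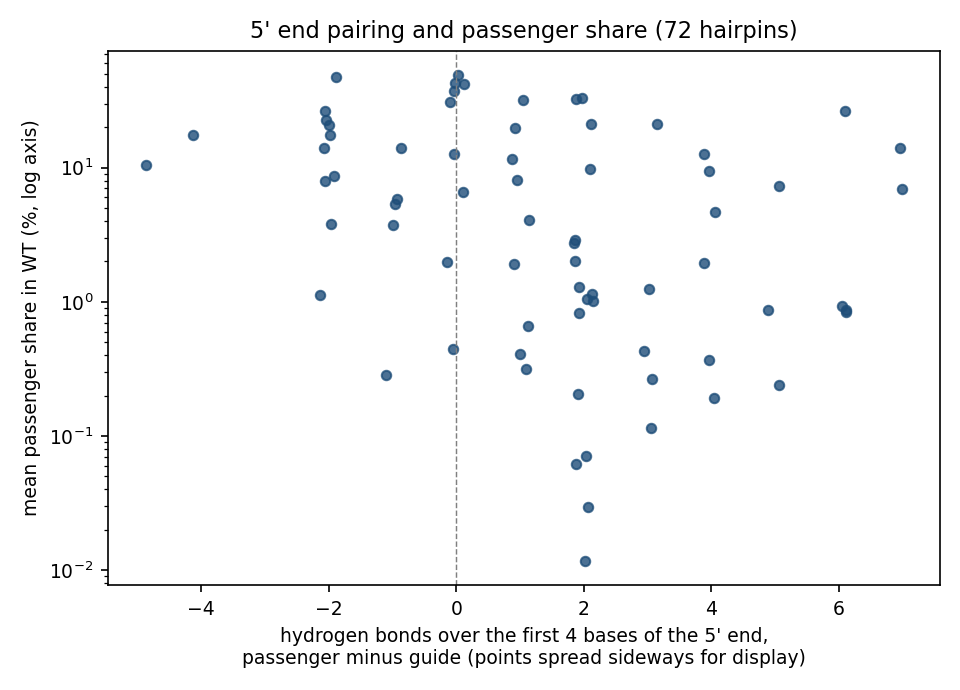
Each point is 1 of 72 hairpins, with the passenger's hydrogen bonds minus the guide's over the first 4 bases of the 5′ end on the x axis and the mean WT passenger share in percent on a log y axis. Hairpins under 0.1% lie to the right of 0, and shares above 10% occur on both sides.

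Some passengers carry the seed of an abundant guide. Of the 82 with a sequence, at least 4 had the same seed as the guide of another expressed hairpin, while the 6 without one, miR-30b-3p and miR-30d-3p among them, could not be compared. miR-106b-5p (AAAGUGC, the seed of miR-17-5p and miR-93-5p, which are known to target cell cycle inhibitors) was at 106, 85.7, 83.5 and 90.5 RPM. miR-30e-5p has GUAAACA, the seed of miR-30a-5p and miR-30c-5p. miR-29c-3p has AGCACCA, that of miR-29a-3p and miR-29b-3p. miR-30a-3p has UUUCAGU, that of miR-30e-3p, and was at 76.4, 104, 127 and 91.3 RPM.

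In the miR-30 pair the same 2 seeds thus sit on major and minor arms in opposite order by summed counts. For mir-30e that order rests on nearly equal arms, and it turned in WT A. With bases numbered from 1 at the 5′ terminus and the miR-30a base given first, the 5p arms differ by C13U and the 3p arms by G18A. The 5p arm was the minor one for mir-30e, with the shares given above, and the major one for mir-30a, where the 3p arm made up 11.8%, 13.6%, 14.04% and 13.7% of the counts. As a passenger miR-30e-5p stood at a mean of 1066 RPM in WT, above the 616 RPM of the guide miR-30a-5p. miR-29a-3p and miR-29c-3p differ by C10U, with the miR-29a base first, and here the passenger at 9.81 RPM in WT was far below the guide at 1334 RPM.

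Other passengers share a seed among themselves. The largest such group has UAUACAA and is made of let-7a-1-3p, let-7b-3p, let-7c-2-3p, let-7f-1-3p and miR-98-3p.
let-7a-1-3p: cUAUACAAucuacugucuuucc
let-7b-3p: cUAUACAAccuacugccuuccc
let-7c-2-3p: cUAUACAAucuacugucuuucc
miR-98-3p: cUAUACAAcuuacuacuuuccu
The sequences of let-7a-1-3p and let-7c-2-3p have 0 differences over 22 nt, so reads from chromosomes 13 and 15 cannot be told apart. Their lines held almost the same counts, 1754 and 1755 in WT A and 2588 and 2592 in KO, and how the common reads were shared out is not given. Pairs with a common seed were miR-148a-5p and miR-148b-5p (AAGUUCU), miR-130b-3p and miR-301a-3p (AGUGCAA), miR-200a-5p and miR-200b-5p (AUCUUAC), miR-26a-2-3p and miR-26b-3p (CUGUUCU), and miR-30c-1-3p and miR-30c-2-3p (UGGGAGA). Within these pairs the WT levels differed, as 39.6 against 13.6 RPM for miR-148b-5p and miR-148a-5p, and 49.3 against 6.61 RPM for miR-26a-2-3p and miR-26b-3p.

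Where a guide comes from 2 precursors, the passengers show which of them left reads. Mature miR-16-5p can come from mir-16-1 in an intron of the noncoding gene Dleu2 (passenger at chr14:61631894-61631915, minus strand) or from mir-16-2 in an intron of Smc4 (chr3:69009960-69009981, plus strand). miR-16-1-3p was at 519, 435, 472 and 466 RPM and miR-16-2-3p at 12.7, 12.5, 10.95 and 7.84 RPM. The passenger of mir-16-1 held 97.2% to 98.3% of the passenger counts of the pair in the 4 libraries. The sequences differ at 10 of 22 positions, and unequal capture of the passengers cannot be told apart from unequal output of the precursors.

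The same was seen for the other pairs, with 1 passenger ahead in every library. miR-7a-1-3p, from an intron of Hnrnpk, had 308, 185, 254 and 281 counts and miR-7a-2-3p 0 in each, and miR-128-1-5p had 174, 153, 171 and 196 counts against 0 for miR-128-2-5p. A count of 0 allows up to 3 counts, or 0.157 to 0.263 RPM. miR-26a-2-3p held 98.1% to 98.5% of the passenger counts of its pair, miR-181b-1-3p 95.02% to 97.3%, and miR-92a-1-5p and miR-194-2-3p at least 95.6%. The more balanced pairs were let-7f-1-3p with 64.3% to 74.3% and miR-30c-1-3p with 62.6% to 76.6%. For the let-7a and let-7c pairs no such share can be given to a precursor, because let-7a-1-3p and let-7c-2-3p have the same sequence. let-7a-2-3p was at no more than 0.31 RPM and let-7c-1-3p at 62.6, 81.8, 110.7 and 73.0 RPM. The miR-30c split stood apart in KO, where miR-30c-2-3p was at 11.6 RPM against 6.44 and 6.49 RPM in WT and 7.90 RPM in 3′F, and miR-30c-1-3p was at 19.4 RPM, inside its WT range of 16.6 to 21.1 RPM.

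**Figure D3:**
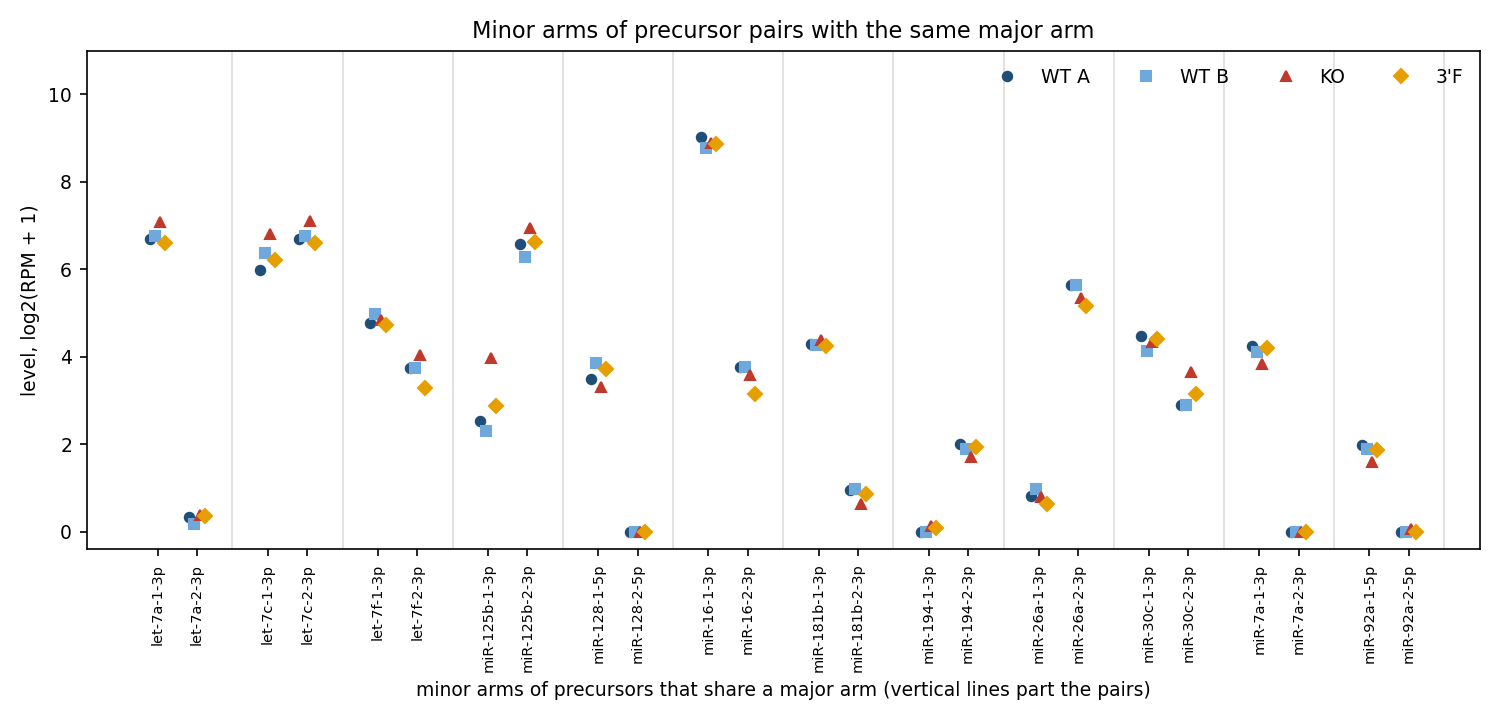
Levels, as log2(RPM + 1), of the minor arms of precursor pairs with a common major arm, in the 4 libraries. In most pairs 1 minor arm lies well above the other in every library, and the KO values of miR-125b-1-3p (14.7 RPM) and miR-30c-2-3p (11.6 RPM) stand above both of their WT values.

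The question for the mutants was whether loss or alteration of miR-146a went with other passenger levels. A miRNA was called changed when its log2(RPM + 1) lay 2-fold or more from WT A and from WT B in the same direction, on a scale that understates the change of low miRNAs. In KO 1 of the 88 passengers was called, against 4.39% of the 387 mature miRNAs with at least 100 counts. In 3′F 0 of 88 were called, against 0.775%. At 1.5-fold the numbers were 6 in KO, against 11.6% of the 387, and 1 in 3′F, against 2.84%. WT A and WT B were themselves at least 2-fold apart for 1 passenger, against 1.03% of all.

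The passenger called in KO was miR-125b-1-3p, from mir-125b-1 at chr9:41581980-41582001 on the plus strand. It had 82, 45, 280 and 103 counts, or 4.8, 3.94, 14.7 and 6.36 RPM. KO lay 3.06 and 3.72 times above WT A and WT B, a difference of 1.55 in log2(RPM + 1), and no other library came near it. Its partner miR-125b-2-3p (chr16:77646318-77646339, plus strand, in an intron of Mir99ahg), 5 bases different, was at 94.7, 76.7, 121.7 and 97.9 RPM, a log2 difference of 0.51 in KO. The guide miR-125b-5p, known as a regulator of blood cell growth and of macrophage activation, was on the mir-125b-1 line at 514, 515, 773 and 550 RPM, a log2 difference of 0.59.

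The arm ratio of miR-125b-1-3p was also called in KO, the only 1 among the 88 hairpins, against 1.65% of the 121 hairpins that passed the counts. Its share was 0.925% (0.746 to 1.15), 0.760% (0.568 to 1.02), 1.86% (1.66 to 2.09) and 1.14% (0.944 to 1.39), so the KO interval lay above the other 3. The log2 arm ratio rose by 1.16 in KO, or 1.17 with the guide summed over its lines. The hairpin has 2 guide lines, and no arm ratio is called when such hairpins are left out. The passenger of mir-125b-1 held 4.83% and 4.89% of the pair's passenger counts in the WT libraries, 10.8% in KO and 6.10% in 3′F. In 3′F 0 of 88 arm ratios were called, against 0.00% of the 121.

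Passengers at 1.5-fold in KO, named after their values were seen, were let-7e-3p, miR-125a-3p and miR-30c-2-3p above WT and miR-200a-5p and miR-29a-5p below it. let-7e-3p was at 22.1, 22.4, 41.6 and 29.1 RPM and miR-125a-3p at 41.4, 42.1, 68.7 and 51.7 RPM. They lie next to each other and to miR-99b-3p on chromosome 17, which was at 617, 641, 851 and 697 RPM. For all 3 KO was the highest library and 3′F the second, and their guides were also highest in KO, by 0.58, 0.67 and 0.51 on the log2 scale. The share of miR-125a-3p was 2.85%, 2.60%, 2.81% and 2.89%, with KO inside the WT range, and that of let-7e-3p was 1.12%, 1.17%, 1.43% and 1.22%, with the KO interval (1.34 to 1.53) above both of WT.

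miR-200a-5p, the passenger of a miRNA known to hold epithelial cells in their state, was at 14.5, 16.0, 7.33 and 13.5 RPM. KO was lowest by a log2 difference of -0.97 and 3′F lay just under WT. miR-200b-5p, its neighbor with the same seed, was at 4.28, 8.59, 3.61 and 4.2 RPM, with WT A close to KO and 3′F. The guides miR-200a-3p and miR-200b-3p were lowest in KO too, at 41.1 and 358 RPM against 54.0 to 61.2 and 512 to 707 RPM in WT, as was the sum of the epithelial markers above. The part of other cells in this was not tested, and in a culture fewer cells of a type and less RNA per cell cannot be told apart.

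miR-29a-5p was at 6.44, 4.47, 2.62 and 4.51 RPM, while its guide miR-29a-3p held 1288, 1381, 1379 and 1221 RPM. Its share in KO, 0.190% (0.144 to 0.25), had an interval below that of WT A, 0.498% (0.413 to 0.599), but overlapping that of WT B, 0.323% (0.246 to 0.424). 3′F, at 0.368%, lay between the WT libraries. The log2 arm ratio differed by -1.08 from the WT mean but not by 2-fold from WT B. In 3′F the passenger nearest to a call was miR-16-2-3p, the only 1 at 1.5-fold, at 7.84 RPM against 12.7 and 12.5 RPM.

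**Figure D4:**
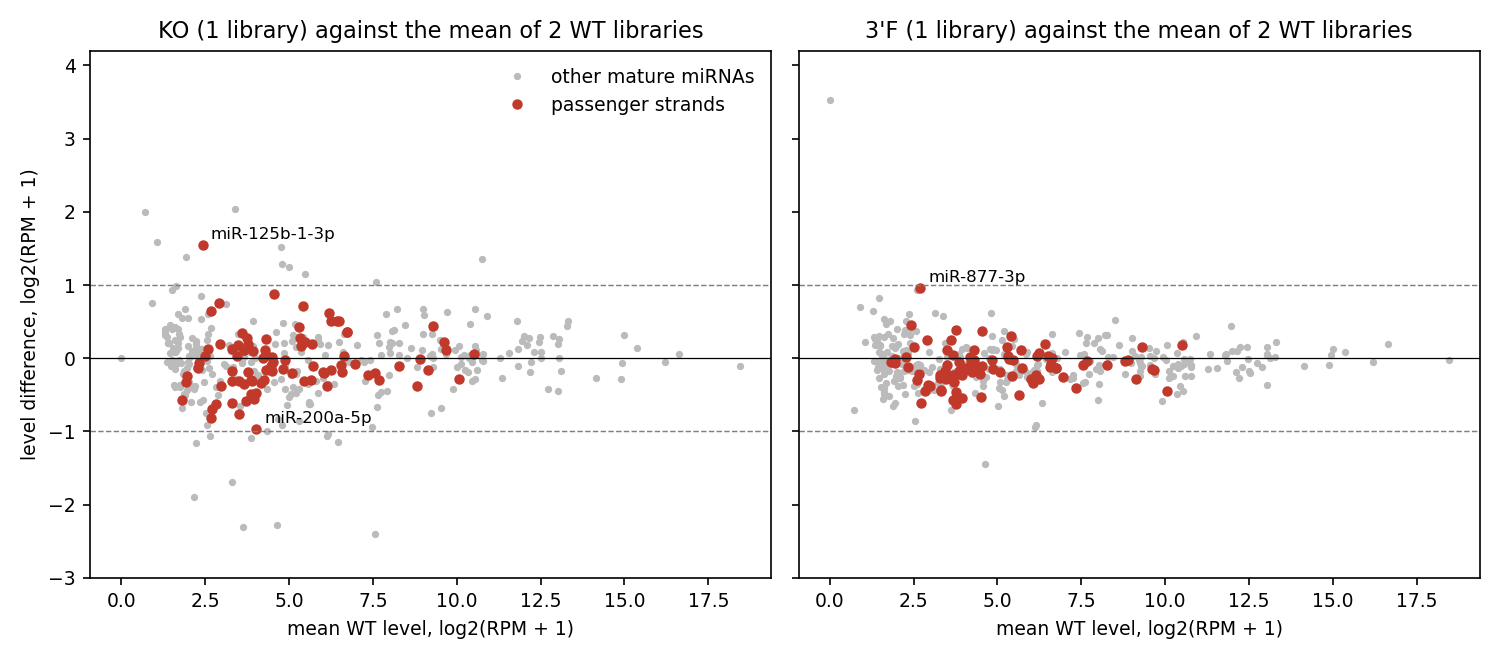
Difference in log2(RPM + 1) of KO (left) and 3′F (right) from the mean of both WT libraries, against the mean WT level, for 88 passengers (red) and the other mature miRNAs with at least 100 counts (grey), with dashed lines at 2-fold. In KO miR-125b-1-3p lies at 1.55 and in 3′F no red point passes a line; miR-146a-5p, at -8.66 and -9.58, lies below the frame.

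Most passengers moved little. The log2 level difference was within 0.5 of 0 for 70 of 88 in KO, for 81 in 3′F and for 81 between WT B and WT A. These numbers were not computed over the 387 miRNAs, so no difference of passengers from other miRNAs can be read from them. The median was -0.10 in KO, beside 0.00 over the 387 miRNAs, and -0.13 in 3′F, beside -0.08. KO lay below both WT libraries for 43 passengers (48.9%, against 39.8% of the 387) and above both for 27 (30.7%, against 35.1%). 3′F lay below both for 49 (55.7%, against 43.7%) and above both for 13 (14.8%, against 24.0%). With the other scalings the passengers below both WT were 38 to 41 in KO and 35 to 48 in 3′F. The matching share of the 387 was not computed for those scalings, so no excess of lowered passengers can be read from them. KO and 3′F are compared with the same WT libraries, so these counts are not independent.

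The shares held more steadily than the range between hairpins. The highest share of a hairpin was below 1.5 times its lowest over the 4 libraries for 62 of 88, with a median of 1.35 times. Counting error did not cover all of this spread, since the Wilson intervals of WT A and WT B did not overlap for 33 of the 88 hairpins. Such intervals are narrower at higher counts. The numbers among the 121 hairpins were not computed, for the intervals or for the highest over the lowest share. The highest share exceeded 2 times the lowest in only 4 hairpins, namely miR-125b-1-3p and miR-29a-5p, given above, and miR-877-3p and miR-505-5p. WT A and WT B were 2-fold apart in arm ratio for 3 hairpins, against 4.13% of the 121: miR-877-3p, miR-505-5p and miR-18a-3p.

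miR-877-3p (chr17:35960731-35960752, minus strand, in an intron of Abcf1) comes from a hairpin of the mirtron type, freed by splicing in place of Drosha. It had 44, 120, 173 and 186 counts, or 2.58, 10.5, 9.06 and 11.5 RPM, and WT A stood apart from the other 3 libraries. Its share was 6.29% (4.72 to 8.34), 21.6% (18.4 to 25.2), 30.5% (26.9 to 34.4) and 26.1% (23.0 to 29.5). Against WT A alone it was 3.51 times higher in KO and 4.45 times in 3′F, and against WT B alone 0.861 and 1.09 times. In KO its log2 arm ratio was 1.68 above the WT mean, and it was not called because WT B lay close. The guide miR-877-5p was at 38.4, 38.2, 20.6 and 32.5 RPM, lowest in KO.

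For miR-505-5p it was WT B that stood apart, at 7.80 RPM against 3.87, 3.04 and 3.27 RPM, with a share of 45.6% (38.8 to 52.6) against 22.2% to 26.2%. For miR-18a-3p the share was lowest in WT A, 24.2% (21.3 to 27.4), and reached 39.5%, 41.9% and 32.8% in WT B, KO and 3′F. The guide of miR-505-5p, miR-505-3p, had a mean of 10.2 RPM, the smallest of the 88 guides. The others just inside that limit were miR-147-5p at 11.7 and miR-29c-5p at 12.8 RPM, and just outside were miR-301b-3p at 4.63, miR-33-3p at 3.37 and miR-195a-5p at 2.02 RPM. At the count limit, miR-345-5p (53, 23, 26 and 39 counts), miR-92a-1-5p (163 in all) and miR-194-2-3p (171) were just inside, and miR-365-2-5p (95), miR-450a-1-3p (88.5) and miR-99a-3p (78.5) just outside.

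By position, 42 of 82 placed passengers lie in introns of protein-coding genes on the same strand and 12 have no other annotated gene over them. In 15 groups of hairpins within 10 kb on 1 strand there were 36 passengers. Hairpins of a group can be cut from 1 transcript, yet their shares differed by 1.71 to 517 times, with a median of 27.5 times, and by over 10 times in 11 of the 15 groups. In single libraries the median was 25.7 to 28.0 times.

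The widest span, of 321, 829, 846 and 482 times in the single libraries, was in Mir17hg, the host of the miR-17-92 cluster on chromosome 14, where miR-92a-1-5p was at 0.0616%, miR-17-3p at 1.93% and miR-18a-3p at 31.9%. On chromosome 13, let-7f-1-3p at 0.0706%, let-7a-1-3p at 1.06% and let-7d-3p at 9.85% lie within a stretch of noncoding RNA. The value of let-7a-1-3p may hold reads of let-7c-2-3p, whose sequence is the same, and so cannot be given to this hairpin alone. In Mcm7, which encodes a subunit of the replicative helicase, miR-25-5p was at 0.365%, miR-93-3p at 0.923% and miR-106b-5p at 10.5%. In introns of the chloride transporter gene Clcn5 on the X chromosome, miR-501-5p was at 0.831%, miR-532-3p at 2.35% and miR-362-3p at 22.8%. Further along the X chromosome miR-351-3p was at 0.565%, miR-503-3p at 11.6% and miR-450b-3p at 26.4%. The narrowest of these groups of 3 was that of let-7e-3p, miR-125a-3p and miR-99b-3p, at 1.15%, 2.72% and 5.89%.

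Neighbors also showed that abundance and share are separate. miR-23a-5p, beside miR-27a-5p on chromosome 8, was at 10.1 RPM and 0.114%, and miR-27a-5p at 1453 RPM and 20.6%. In the homologous pair on chromosome 13, miR-23b-5p was at 51.7 RPM and 0.752%, and miR-27b-5p at 449 RPM and 0.441%. The guides miR-27a-3p and miR-27b-3p, known for roles in fat and immune cells, differ by C19U alone, with the miR-27a base first.

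**Figure D5:**
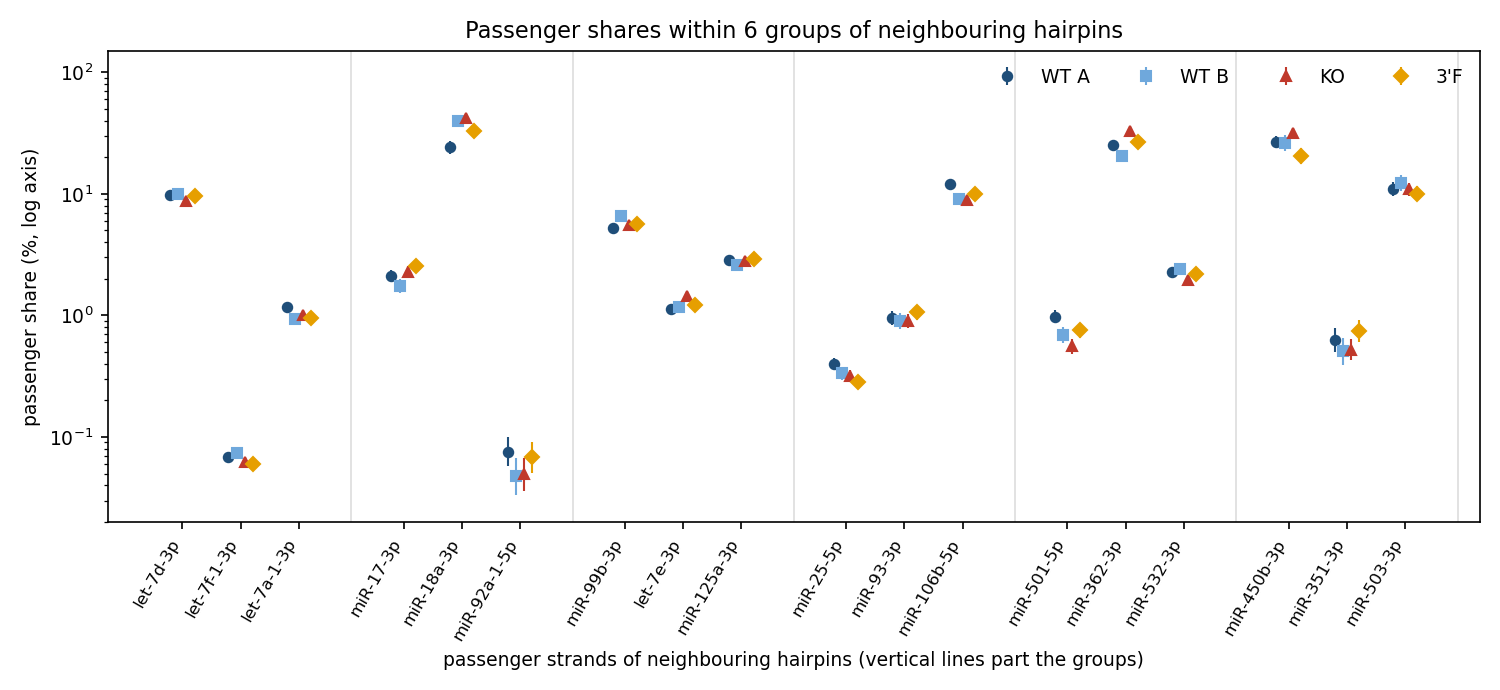
Passenger shares, in percent on a log axis, of the 6 groups of 3 neighboring hairpins in the 4 libraries, with 95% Wilson intervals as bars. Most hairpins of a group lie further apart than their libraries, up to 321 times in WT A and 829 times in WT B, and miR-18a-3p runs from 24.2% to 41.9% between libraries.

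Passenger and guide of a hairpin did not always move alike. In KO 57 of 88 hairpins had both arms on the same side of the WT mean, and in 3′F 50 had. The median log2 arm ratio differed from WT by -0.10 in KO and -0.08 in 3′F, and it was within 0.5 of 0 for 69 and 83 hairpins, as it was for 74 between WT B and WT A. miR-152-5p, at 4.02%, 3.49%, 2.13% and 3.06%, was lowest in KO. Its guide was highest there, at 859, 828, 1301 and 905 RPM, and the passenger was at 35.96, 29.97, 28.3 and 28.6 RPM. miR-23b-5p was highest in KO, with a share of 0.609%, 0.896%, 1.13% and 0.839% while its guide was lowest there, at 6796, 6837, 5082 and 6517 RPM.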

How the data were processed

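Small RNA libraries of 4 BMDM cultures were analysed. The authors deposited, for 2129 lines of mature miRNA and precursor, estimated counts, which need not be whole numbers, and RPM values, reads per 1000000 counts of the library. Reads had been trimmed with cutadapt 1.8.3, according to the submitters' processing notes, and the aligner, mismatch allowance and miRNA release are not given in the sources used here. All sample columns were used. The other assays of the study were not used here.

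From these values the minor and major arm of each precursor, shares with 95% Wilson intervals (counting error only, since reads are not independent molecules), arm ratios as log2((passenger + 0.5)/(guide + 0.5)), and differences of log2(RPM + 1) were computed. A call needed 2-fold from both WT libraries, and no p-value was computed. Counts were within 0.005 of an integer where called whole. Sequences and positions came from RefSeq (GRCm38.p6), host genes from the GENCODE vM21 annotation of the same build, and folds from ViennaRNA 2.7.2. Scalings used edgeR 4.0.16 and DESeq2 1.42.0 in R 4.3.3, and other steps Python 3.11.15 with numpy 2.4.6, pandas 2.3.3 and matplotlib 3.10.9.

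Members, lists and tests were chosen with earlier results of these data and the study's own count table known. The features of the 5′ ends, the division by share and the summing of guide lines were added after the data were seen. Named are the 10 highest and 8 lowest shares, the 6 highest levels, members called or switched, members sharing seeds, neighboring groups, and the 3 on either side of each limit. Other names were chosen after their values were seen.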

Additional observations from a re-analysis of the deposited data

How the results depend on the processing

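The KO and 3′F libraries have no replicate, and hairpins with low guides rest on few counts. No paired analysis was possible because each mutant had a single library. No direction turned under the settings tried. Passengers called in KO numbered 6 at 1.5-fold (11.6% of all 387 miRNAs), 0 at 3-fold (1.81%), 4 without WT A (7.24%) and 3 without WT B (6.46%). In 3′F they numbered 1 at 1.5-fold (2.84%), without WT A (1.55%) and without WT B (2.07%). Arm ratios called in KO numbered 6 at 1.5-fold (9.92% of the 121 hairpins), 0 at 3-fold (0.00%), 8 with no count minimum, 0 where each arm had 1 line, 2 without WT A (4.13%) and 5 without WT B (5.79%). In 3′F they numbered 5 with no count minimum, 1 without WT A (3.31%) and 1 without WT B (0.826%). No matching percentage was computed for the settings with no count minimum or with 1 line for each arm. The number of hairpins differs under these settings, so an excess of calls cannot be read from them. Left without WT A, the passengers 2-fold from WT B in KO were miR-125b-1-3p, miR-200a-5p, miR-200b-5p and miR-505-5p, and without WT B those 2-fold from WT A were miR-125b-1-3p, miR-29a-5p and miR-877-3p. In 3′F miR-505-5p was called without WT A and miR-877-3p without WT B, by level and by arm ratio. The log2 level difference of miR-877-3p in 3′F, 0.96, became 1.803 against WT A alone and 0.12 against WT B alone. The WT libraries were 1.5-fold apart for 4 passengers, against 5.68% of all.

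The median share, 4.99%, became 5.47% with guide counts divided by the guide's lines, 6.58% for hairpins with 1 line for each arm, 4.64% for whole counts, 5.33% at 500 or more counts, 0.923% with no count minimum and 4.34% with the guide summed over its lines, a setting added after seeing the data. Dividing guide counts added miR-16-1-3p to the hairpins with a switched arm, 3 in place of 2, and seeds of bases 2 to 7 gave 5 passengers with the seed of a guide in place of 4. With 3 other scalings and a pseudocount of 0.1 the single passenger called in KO stayed at 1, with a log2 difference for miR-125b-1-3p of 1.58 to 1.73.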
